A study of Mus musculus with 37 samples.

Results

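Open chromatin sites of the maternal pronucleus soon after fertilization were compared with those of the growing oocyte. The sites are DNase I hypersensitive sites (DHSs), stretches of DNA that the enzyme DNase I cuts readily and that are listed here by position alone. A site of one list counted as present in the other when the 2 overlapped by at least 1 bp, on nuclear chromosomes only. The maternal PN3 list held 3948 sites and the oocyte list 852, together 4800 of the 52649 sites in the 11 stage, gamete and pronuclear lists of the series. Of the oocyte sites, 702 were kept at maternal PN3 and 150 were missing there. Of the maternal PN3 sites, 3235 were seen in the pronucleus and not in the oocyte, and 713 were shared with it.

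The series mapped DHSs across mouse preimplantation development with a DNase-seq protocol for small inputs, in 32 DNase-seq samples, beside 5 RNA-seq samples that were not used here. Each group below had 2 DNase-seq samples. Maternal pronuclei came from PN3 zygotes 7.5 h after fertilization, with 150 and 140 pronuclei per sample, and paternal pronuclei from the same stage and numbers. Oocytes were at the germinal vesicle (GV) stage, from 14-day-old females, with 150 cells per sample.

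The strain label of oocytes and of both kinds of pronuclei is BDF1, a hybrid of C57BL/6 and DBA/2. The protocol describes in vitro fertilization of mature eggs from adult superovulated BDF1 females, with JF1 sperm except for 1-cell zygotes, which got BDF1 sperm; the strain of the sperm behind the pronuclei follows from the label alone. Maternal and paternal pronuclei at PN5 were taken at 12 h, with 170 per sample. Stage embryos were taken at 12 h (1-cell), 30 h (2-cell), 46 h (4-cell), 60 h (8-cell) and 78 h (morula). They numbered 100, 100, 50, 25 and 10 embryos per sample, in that order. Their strain label is BDF1 oocyte x JF1 sperm, while for 1-cell zygotes the protocol names BDF1 sperm. Sperm samples held 5000 cells of BDF1 mice. In the knockdown series, 2-cell embryos were given siRNA against Nfya or a control siRNA (siControl), and 8-cell embryos siRNA against Oct4 or siControl, all with BDF1 parents. One concentration of DNase I served for all samples other than the 1-cell embryos, which received a higher one. The oocytes taken were thus not the eggs that were fertilized, and the end of growth, meiotic maturation and fertilization lie between the groups compared. Each group had 1 list and no value per library, so no list has a replicate error, and the sequencing depth behind the lists is unknown. Intervals are exact 95% Clopper-Pearson intervals for shares and cover counting error only.

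Nucleosomes and other proteins shield most DNA from DNase I, and sites where a promoter or enhancer is occupied by regulatory factors are cut first. The growing oocyte transcribes actively while it stores RNA for the embryo. By the fully grown stage transcription falls silent, and the chromosomes condense for the meiotic divisions. After fertilization each parental genome decondenses into a pronucleus of its own, and PN3 is the middle of pronuclear development, around the time when DNA replication starts and the first embryonic transcripts appear. A GV oocyte carries a replicated diploid genome and a pronucleus a haploid one. Genome copies per cell or pronucleus therefore differ between these groups.

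Most oocyte sites were found again in the maternal pronucleus, and the pronucleus held many more. The kept sites made up 82.4% of the oocyte list (702 of 852, 79.7 to 84.9) and the missing sites 17.6%. Pronucleus-only sites made up 81.9% of the maternal PN3 list (3235 of 3948, 80.7 to 83.1). The maternal PN3 list covered 0.714 Mb and the oocyte list 0.156 Mb, and the median width was 170 bp in both. A longer list meets more sites of a shorter one, so the shares of the 2 lists are not set against each other. Positions throughout are on the mouse build mm9.

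Matched sites were picked by overlap, so their centres lie close by construction, and the distances below only describe the pairs. Of the 702 kept oocyte sites, 681 overlapped 1 maternal PN3 site and 21 overlapped 2, and 10 maternal PN3 sites overlapped 2 oocyte sites. In the 661 one-to-one pairs the centres were a median of 30 bp and at most 200 bp apart. In 474 pairs (71.7%) they were within 50 bp. No comparison with pairs overlapping at random was made. The site was wider in maternal PN3 in 303 pairs, of equal width in 122 and narrower in 236. Mean width was 190 bp in maternal PN3 and 187 bp in the oocyte, and 25 pairs had identical coordinates. The pair that widened most, a promoter-class site, was 410 bp in maternal PN3 (chr11:23155581-23155990) and 150 bp in the oocyte (chr11:23155581-23155730). The pair that narrowed most, of promoter class too, was 170 bp in maternal PN3 (chr5:138070081-138070250) and 390 bp in the oocyte (chr5:138069961-138070350). Other pairs with large changes were again promoter-class sites. They were 350 bp in maternal PN3 against 150 bp in the oocyte at chr5:114580761-114581110, and 410 against 210 bp at chr9:122203441-122203850. Among narrowing pairs they were 190 against 370 bp at chr10:126727601-126727790 and 190 against 350 bp at chr2:125450841-125451030.

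Narrow sites were matched less than wide ones, as a description with no test. Kept oocyte sites had a median width of 170 bp and missing ones 150 bp, the smallest width in either list. Sites of 150 bp made up 42.6% of kept sites (38.9 to 46.4) and 76% of missing sites (68.4 to 82.6). Read the other way, 299 of 413 oocyte sites of 150 bp were kept (72.4%), and 403 of 439 wider ones (91.8%). Above 150 bp the kept share did not climb further, with 92.2% at 170 bp, 91.6% at 190 bp, 92.9% at 210 to 250 bp and 87.9% at 270 bp or more, and the intervals of these 4 shares overlap. In the maternal pronucleus, sites of 150 bp made up 51.4% of pronucleus-only sites and 28.1% of shared sites. The pronucleus-only share was 89.3% at 150 bp (87.8 to 90.6), 72.6% at 170 bp and 84.3% at 270 bp or more (78.9 to 88.8). The interval at 270 bp or more lies above those at 170 bp and at 210 to 250 bp (71.9 to 78.1). The lists carry no score, and whether width stands for signal strength was not tested.

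**Figure D1:**
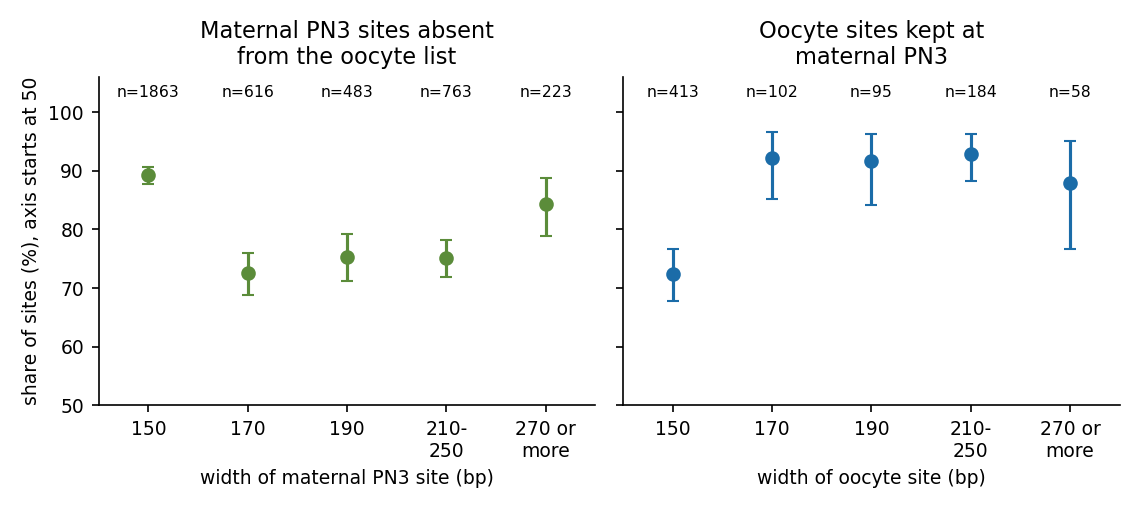
Share of maternal PN3 sites absent from the oocyte list (left) and share of oocyte sites kept at maternal PN3 (right), in percent, by the width of the site in bp. Points are shares of the number of sites printed above them, and bars are exact 95% intervals. Narrow 150 bp sites matched least on both sides, with 89.3% absent and 72.4% kept.

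Some missing sites had a pronuclear site close by. Of the 150 missing oocyte sites, 18 lay within 100 bp of a maternal PN3 site and 30 (20.0%, 13.9 to 27.3) within 500 bp, but the median distance to the nearest maternal PN3 site was 56.9 kb. Of the 3235 pronucleus-only sites, 77 (2.38%, 1.88 to 2.97) lay within 500 bp of an oocyte site, and the median distance to the nearest oocyte site was 576 kb. With a gap of up to 500 bp counted as a match, 85.9% of oocyte sites were kept. When each site had to cover 50% of the other, 70.1% were kept. Most pronucleus-only sites thus had no oocyte site within 500 bp. Distances also depend on the length of the list searched, 852 oocyte or 3948 maternal PN3 sites. They were not compared with those of random positions.

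Promoters were the most common class in every group. The authors classed the sites of the 5 embryo stages as promoter, intergenic, intron or exon. Each oocyte or pronuclear site took the class of the stage site it overlapped longest. Such a site existed for 698 of 702 kept oocyte sites and 130 of 150 missing ones, and for 2590 of 3235 pronucleus-only sites and 709 of 713 shared ones. Kept sites were promoters in 640 of 698 cases (91.7%, 89.4 to 93.6) and missing sites in 102 of 130 (78.5%, 70.4 to 85.2). The difference was 13.2 percentage points (6.63 to 21.3, Newcombe interval), with an odds ratio of 3.03 (two-sided Fisher's exact test, p = 3.08e-05 after adjustment for the 2 promoter tests). With sites of no class counted as not promoter, the shares were 91.2% of kept and 68% of missing sites, a difference of 23.2 points (15.9 to 31.2). Introns made up 2.29% of kept and 7.69% of missing sites, and intergenic sites 5.16% and 11.5%.

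The sites seen only in the pronucleus were also less often promoters than those shared with the oocyte. They were promoters in 2131 of 2590 cases (82.3%, 80.8 to 83.7), and shared sites in 646 of 709 (91.1%, 88.8 to 93.1), a difference of -8.84 points (-11.3 to -6.11, odds ratio 0.453, Fisher's exact adjusted p = 4.94e-09). With sites of no class counted as not promoter, 65.9% of pronucleus-only and 90.6% of shared sites were promoters, a difference of -24.7 points (-27.3 to -21.9). Intergenic sites made up 12.1% of pronucleus-only and 5.36% of shared sites. Seen by class, the kept share was 86.3% of promoter sites of the oocyte (640 of 742), 70.6% of intergenic sites (36 of 51), 61.5% of intron sites (16 of 26) and 16.7% of sites with no class (4 of 24). The class is known only for a site open in a listed embryo stage, so sites of the oocyte or pronucleus alone have none.

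The promoter differences were also taken within widths. Among oocyte sites of 150 bp, promoters made up 91.2% of kept and 75.8% of missing sites (15.4 points, Fisher's exact p = 0.000253). Among wider ones they made up 92.0% and 85.7% (6.33 points, -2.26 to 21.6, Fisher's exact p = 0.202), with 36 missing sites over 150 bp in all. On the pronuclear side the difference was -11.4 points among sites of 150 bp and -6.69 points among wider sites, and both passed (Fisher's exact p = 7.3e-05 and 0.000126). With sites of at least 200 bp alone in both lists, the signs turned, to -5.62 points for kept against missing (Fisher's exact p = 0.209) and 0.38 points for pronucleus-only against shared sites (p = 0.852). Under that rule 171 oocyte sites counted as missing, but 151 of them overlapped a narrower maternal PN3 site.

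**Figure D2:**
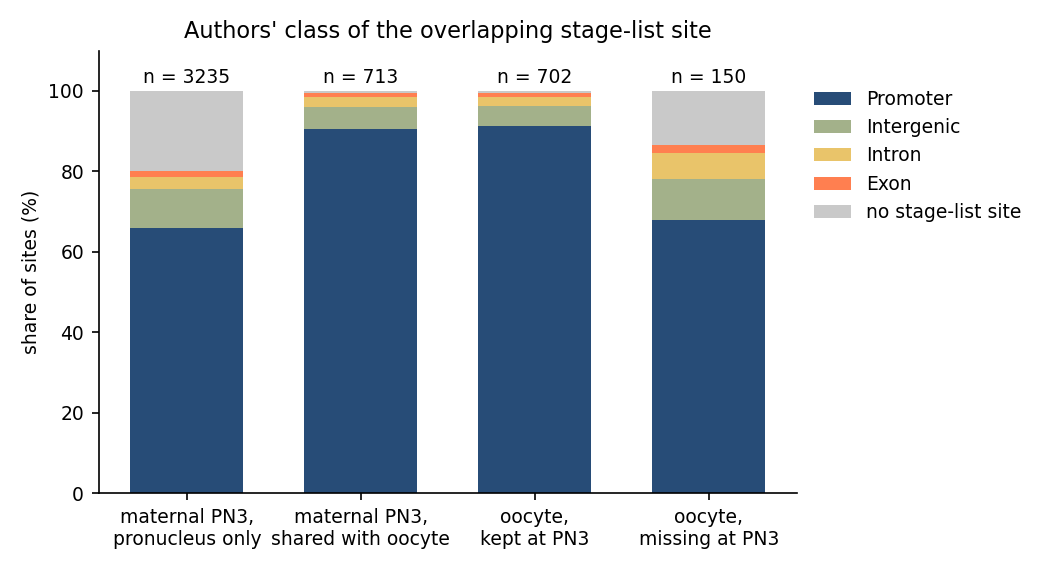
Share of sites in percent by the authors' class of the stage-list site each overlaps, in 4 groups of sites whose number is printed above the bar. Kept oocyte sites and shared pronuclear sites were almost all promoters, while 13.3% of missing and 19.9% of pronucleus-only sites overlapped no stage-list site.

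Sites listed in both the oocyte and the maternal pronucleus were also listed more often in every other list compared. The 8 lists were those of paternal PN3, maternal PN5, paternal PN5 and the 5 embryo stages. Kept sites were in the maternal PN5 list in 656 of 702 cases (93.4%, 91.4 to 95.2) and missing sites in 74 of 150 (49.3%, 41.1 to 57.6). In the paternal PN3 list the shares were 86.9% of kept and 40% of missing sites, and in the paternal PN5 list 78.1% and 30.7%. Among embryo stages the shares were 37.7% of kept and 11.3% of missing sites at the 1-cell stage, 54.1% and 20.7% at the 2-cell stage, 81.5% and 50.0% at the 4-cell stage, 97.9% and 80.7% at the 8-cell stage, and 99.3% and 86.7% in the morula. The differences ran from 12.6 points in the morula to 47.4 points in paternal PN5. All 8 passed (Fisher's exact tests, two-sided, largest adjusted p = 3.39e-11 over 8 lists). Among sites over 150 bp, 6 of 8 passed. With a minimum of 200 bp in the oocyte list and every pronuclear list, 0 of 8 passed. Shares of later stages rise with the length of the list, and 1-cell embryos had more DNase I, so the shares are not compared between lists.

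Pronucleus-only sites followed the same order against shared ones. Of 3235 pronucleus-only sites, 57.1% were again in maternal PN5 (55.4 to 58.8), against 93.1% of 713 shared sites (91.0 to 94.9). At the 2-cell stage the shares were 9.71% of pronucleus-only and 53.7% of shared sites, at the 4-cell stage 29.2% and 81.1%, and in the morula 79.0% and 99.3%. All 8 differences passed (largest Fisher's exact adjusted p = 7.05e-54). With a minimum of 200 bp in the oocyte list and every pronuclear list, 7 of 8 passed. The exception, maternal PN5, had 2.72 points in the other direction (-8.48 to 11.3). There the shares were 24.95% of pronucleus-only and 22.2% of shared sites, with maternal PN5 sites under 200 bp dropped.

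**Figure D3:**
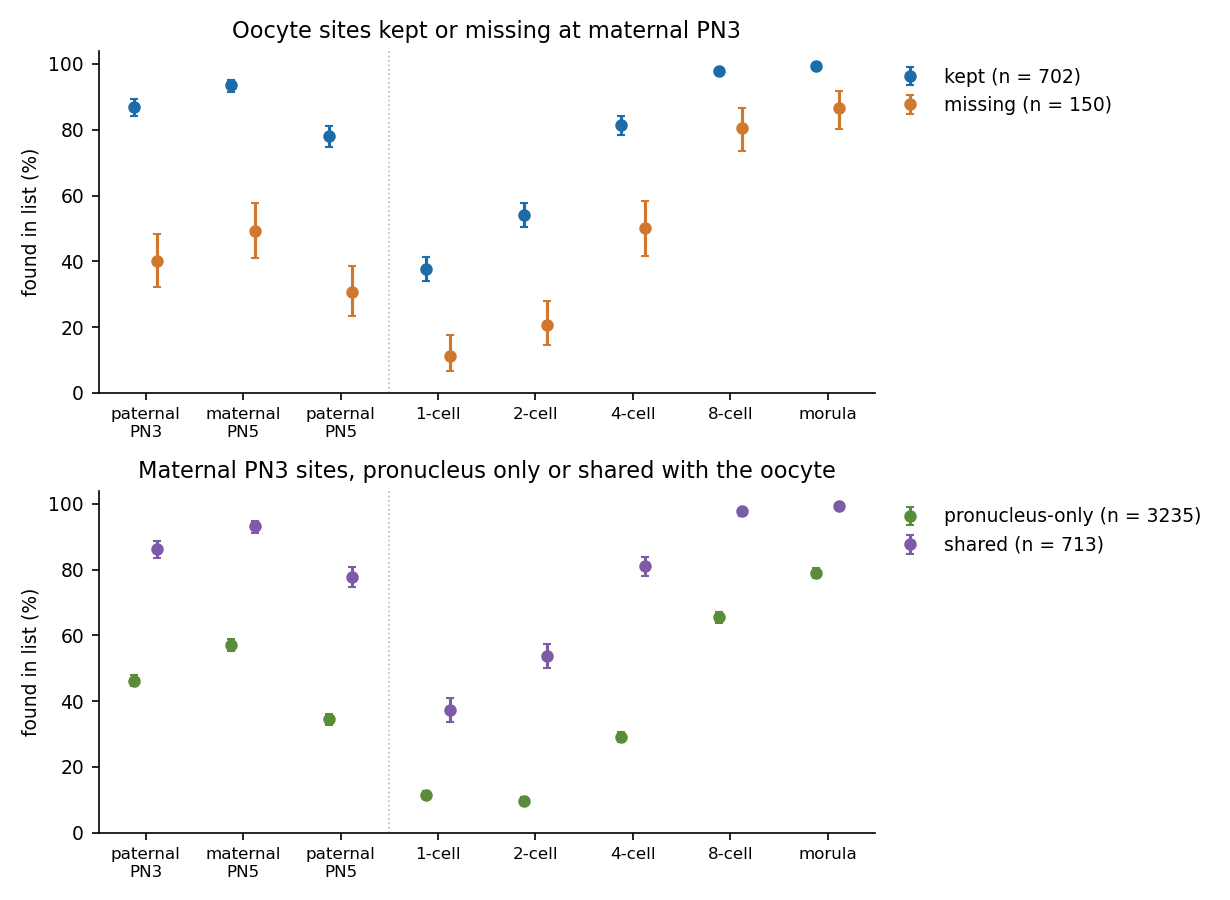
Share of sites in percent found in each of 8 other lists, for kept and missing oocyte sites (top) and for pronucleus-only and shared maternal PN3 sites (bottom), with exact 95% intervals as bars; the dotted line parts pronuclear lists from stage lists. Kept sites lie above missing sites and pronucleus-only sites below shared sites in every list, and in maternal PN5 the shares are 93.4% and 49.3% for oocyte sites.

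Many sites missing at PN3 were listed in other pronuclei or at later stages. Of the 150 missing sites, 74 were listed in maternal PN5, and these were in paternal PN3 in 55.4% of cases and in the morula in 97.3%. The 76 not listed in maternal PN5 were in paternal PN3 in 25.0% and in the morula in 76.3%. All 3 other pronuclear lists held 501 of 702 kept sites (71.4%) and 25 missing sites (16.7%). Of the missing sites, 52 were in none of these 3 lists, and 37 of the 52 were in the morula. In none of the 8 lists were 1 kept site and 15 missing sites (10.0% of 150, 5.71 to 16.0), beside 470 pronucleus-only sites (14.5%, 13.3 to 15.8).

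A few missing sites were listed in all of the 8 other lists. Chosen for this after the lists were compared, these were 4 promoter-class sites: chr4:40895341-40895510, chr7:26540161-26540310, chr11:96639021-96639170 and chr14:63456121-63456290. The sites on chr7 and chr11 had a maternal PN3 site 30 bp away, while on chr4 and chr14 the nearest was 175810 and 223190 bp away. The widest missing site, at chr9:104165181-104165570 (390 bp, promoter), was in maternal PN5 and in the 4-cell, 8-cell and morula lists, and the nearest maternal PN3 site was 260170 bp away. The next widest, chr8:11635821-11636190 (370 bp, promoter), was in 7 of the 8 other lists and had a maternal PN3 site 210 bp away. One of the 3 of 290 bp, chr3:87689461-87689750 (promoter), was in paternal PN5 and the 4-cell, 8-cell and morula lists. Missing sites seen again in maternal PN5, the 2-cell list and the morula had as their widest the site on chr8. After it came the promoter-class sites chr1:52901581-52901830 and chr2:32582941-32583190, each of 250 bp and each in 6 of the 8 lists. The 1 kept site in none of the 8 lists was chr3:53578801-53578950, of 150 bp and no class. Of the other 3 kept sites with no class, chr8:115650021-115650170 and chr10:40068761-40068910 were in all 3 other pronuclear lists and no embryo list, and 1 on chromosome 18 was in maternal PN5. These sites too were picked after the lists were compared.

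Among kept sites, 169 (24.1%) were in all 8 other lists, at every step compared. The widest of these was the promoter-class site chr5:138069961-138070350, the pair that narrowed most. Next came chr7:120657081-120657390, of 170 bp in maternal PN3 and 310 bp in the oocyte. The site chr1:133424021-133424310, one of 6 such sites of 290 bp, overlapped 2 maternal PN3 sites of 150 and 170 bp. The kept site chr1:7388001-7388390, of 390 bp like chr5:138069961-138070350, was intergenic and, of the 8 lists, absent from the 2-cell list alone. Its maternal PN3 partner was 290 bp. One of 2 kept sites of 370 bp, the promoter chr7:31337101-31337470, was also absent from only the 2-cell list of the 8 and had a partner of 230 bp. The widest pronucleus-only site was chrX:160396241-160396710 (470 bp, promoter), found again in the 8-cell and morula lists. Of the 4 sites of 410 bp, 2 promoter-class ones were chr5:8997061-8997470, found in paternal PN3, paternal PN5 and the 8-cell list, and chr10:31032901-31033310, found in maternal PN5 and the 8-cell and morula lists. The widest site listed in maternal PN3 and in no other list was chrX:117226161-117226550 (390 bp), followed by chr6:145669241-145669610 (370 bp) and chrX:92853581-92853930 (350 bp). All 15 missing sites in none of the 8 lists were 150 bp, the smallest width, and chr4:5376261-5376410, chr5:124955521-124955670 and chr5:135243921-135244070 are examples. A site listed once, in 1 list with no value per library, has no replicate behind it.

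The paternal pronucleus, whose chromosomes come from sperm, matched the oocyte list almost as often as the maternal one. Maternal PN3 held 702 of 852 oocyte sites (82.4%, 79.7 to 84.9) and paternal PN3 held 670 (78.6%, 75.7 to 81.4). Both held 610, maternal alone 92, paternal alone 60 and neither 90. The maternal list is the longer, with 3948 sites against 3681. Seen from the lists, 713 of 3948 maternal sites (18.1%) and 669 of 3681 paternal sites (18.2%) overlapped an oocyte site. On oocyte sites the difference of 3.76 points passed (exact McNemar test, two-sided, p = 0.0117), but on autosomes it was 2.65 points and did not (82 against 60 sites, exact McNemar p = 0.0777). A paternal pronucleus carries an X or a Y and a maternal one an X, and 10 of the 92 sites found in maternal PN3 alone were on X, against 0 of the 60 found in paternal PN3 alone. X held 22 of all 852 oocyte sites, with 7 of the 610 in both PN3 lists and 5 of the 90 in neither. These X counts are small and were not tested. List length was not part of this test. Among sites of at least 200 bp in all lists the sign turned (-2.07 points, exact McNemar p = 0.682).

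Oocyte sites listed in 1 of the PN3 lists were fewer than those in both, and smaller shares of them were promoters or listed later. Of the 610 in both PN3 lists, 93.4% of those with a class were promoters, 96.2% were in maternal PN5 and 57.9% in the 2-cell list. Of the 92 in maternal PN3 alone, 80.0% were promoters, 75% were in maternal PN5 (64.9 to 83.5), 39.1% in paternal PN5 (29.1 to 49.9) and 29.3% in the 2-cell list. Of the 60 in paternal PN3 alone, 73.7% were promoters, 68.3% were in maternal PN5 (55.0 to 79.7), 48.3% in paternal PN5 (35.2 to 61.6) and 21.7% in the 2-cell list. Of the 90 in neither PN3 list, 82.2% of those with a class were promoters (71.5 to 90.2). Of all 90, 36.7% were in maternal PN5, 18.9% in paternal PN5 and 20.0% in the 2-cell list. Sites of 150 bp made up 40.3% of those in both, 57.6% of maternal alone, 70% of paternal alone and 80% of neither. The intervals of the maternal-alone and paternal-alone sites overlap for each of these shares, and they were not tested against each other.

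The pronucleus-only sites split in the same way. Of these, 1495 were in paternal PN3 too (46.2%, 44.5 to 48.0) and 1740 were not. Those in both pronuclei were in maternal PN5 in 80.4% of cases, in the 8-cell list in 84.7% and in the morula in 94.3%. Those in the maternal pronucleus without the paternal one were in maternal PN5 in 37.1%, in the 8-cell list in 49.1% and in the morula in 65.8%. Sites of 150 bp made up 34.7% of the first set and 65.8% of the second. X held 1.67% of the first and 6.09% of the second, beside 131 of all 3235 pronucleus-only sites and 149 of all 3948 maternal PN3 sites. The X shares were not tested, and a paternal pronucleus carries an X or a Y.

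Kept and pronucleus-only sites were spread over all chromosomes. The kept share ran from 73.1% on chromosome 1 (38 of 52) to 92.6% on chromosome 2 (50 of 54), and their intervals, 59.0 to 84.4 and 82.1 to 97.9, overlap. Maternal PN3 held from 3.61 sites per oocyte site on chromosome 14 to 7.41 on chromosome 13, with 31 and 17 oocyte sites. In bins of 1 Mb, kept sites were most crowded at 79 to 80 Mb of chromosome 10, with 10 kept of 12 oocyte sites beside 19 maternal PN3 sites. Pronucleus-only sites were most crowded at 4 to 5 Mb of chromosome 19, with 15 of them and 3 oocyte sites. Missing sites were most crowded at 29 to 30 Mb of chromosome 7, with 5 missing of 9 oocyte sites. Of these, 3 lay side by side, at chr7:29997541-29997690, chr7:29997721-29997870 and chr7:29997941-29998090, and the first 2, of intron class, were in the 1-cell, 2-cell, 8-cell and morula lists. The other two were the promoter-class sites chr7:29157681-29157870 and chr7:29965481-29965630.

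**Figure D4:**
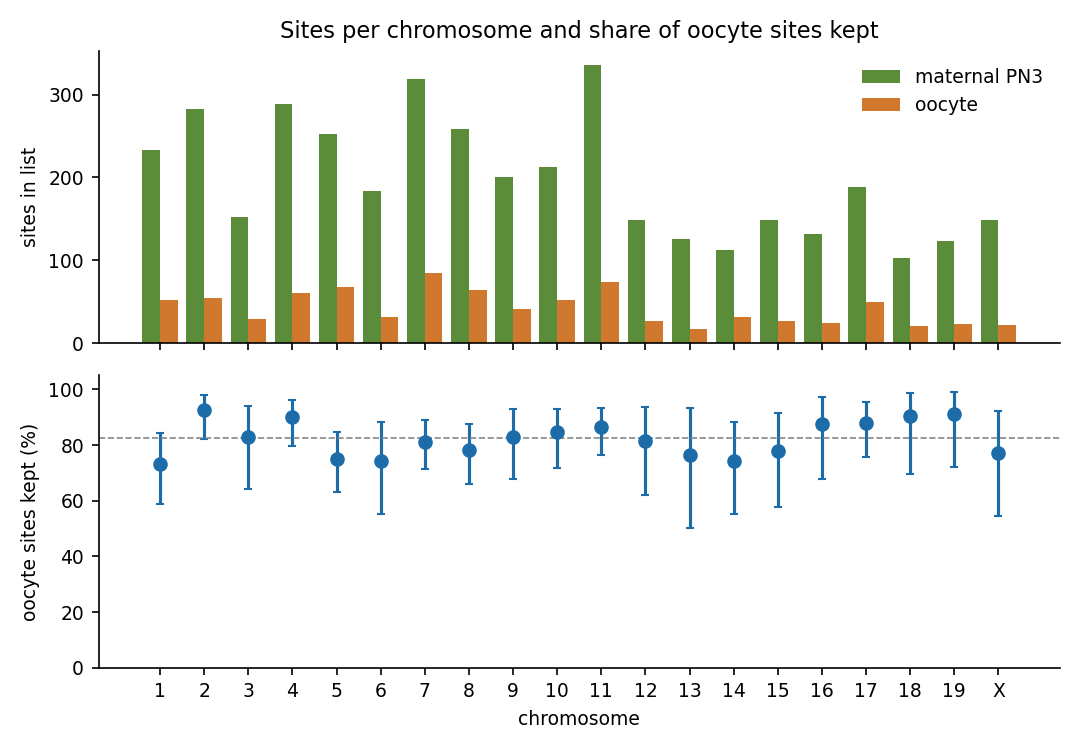
Number of sites per chromosome in the maternal PN3 and oocyte lists (top) and share of oocyte sites kept at maternal PN3 in percent (bottom), with exact 95% intervals as bars and the share over all chromosomes, 82.4%, as a dashed line. The maternal PN3 list is longer on every chromosome, and the kept share ranges from 73.1% to 92.6%.

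Sites of the embryo stages were also read against both lists. The maternal PN3 list is much the longer (3948 sites against 852 in the oocyte), so its larger overlap is not read as a difference between the groups. Of 844 1-cell sites, 262 (31.0%) overlapped a site of both the oocyte and maternal PN3, 353 (41.8%, 38.5 to 45.2) one of maternal PN3 alone, 9 (1.07%) one of the oocyte alone and 220 (26.1%) neither. Of 1006 2-cell sites, 376 (37.4%) overlapped both, 292 (29.03%) maternal PN3 alone, 22 (2.19%) the oocyte alone and 316 (31.4%) neither. Promoters made up 93.6% of the 2-cell sites overlapping both, 93.8% of those overlapping maternal PN3 alone and 41.8% of those overlapping neither (36.3 to 47.4). In the morula, 705 of 19476 sites (3.62%) overlapped both, 2549 (13.1%) maternal PN3 alone and 127 (0.652%) the oocyte alone.

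The lists of sites that the authors found decreased after knockdown were read at the same places. Nfya is a DNA-binding subunit of the CCAAT-box factor NF-Y, which binds many promoters. The authors' list of 2-cell sites decreased after Nfya knockdown held 286 of the 1006 2-cell sites, a background of 28.4%. It held 136 of the 376 2-cell sites that overlapped both the oocyte and maternal PN3 (36.2%, 31.3 to 41.3), 84 of 292 that overlapped maternal PN3 alone (28.8%, 23.6 to 34.3), 3 of 22 that overlapped the oocyte alone (13.6%, 2.91 to 34.9) and 63 of 316 that overlapped neither (19.9%, 15.7 to 24.8). The 3 listed 2-cell sites that overlapped the oocyte alone, named after their count was seen, were chr3:142544981-142545230, chr7:29997501-29997790 and chr15:76490501-76490710. Among promoter-class 2-cell sites the background was 31.1% (242 of 777), and the shares were 36.4%, 28.5%, 10.5% and 25.8% in the same 4 sets. Over all classes, the interval of the sites in both lists lies above the background and that of the sites in neither below it. Among promoters the interval of the sites in both lists (31.3 to 41.6) begins just above the promoter background. Those sites are themselves 352 of the 777 promoters in that background. The interval of the promoters in neither (18.5 to 34.1) includes it.

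Seen from the compared lists, 380 of 702 kept, 31 of 150 missing and 314 of 3235 pronucleus-only sites overlapped a 2-cell site. Of these, 139 kept, 7 missing and 92 pronucleus-only sites overlapped a site of the Nfya-decreased list. That list held 28.4% of all 2-cell sites, and 1 of its sites can meet several sites of the groups. The table gives values per library in RPM, reads scaled to library size. At the 136 sites in both lists the median was 0.314 and 0.407 RPM in the Nfya-KD libraries, against 2.13 and 0.694 RPM in the siControl libraries. At the 84 sites of maternal PN3 alone it was 0.314 and 0.325 RPM in Nfya-KD, against 1.77 and 0.486 RPM in siControl. In library 1 of each group 1 read was worth 0.314 RPM (Nfya-KD) and 0.354 RPM (siControl), so the median in Nfya-KD library 1 is a single read. At chr5:138069961-138070350, one of the 2 widest kept sites, the 2-cell site had 3.45 and 1.14 RPM in Nfya-KD, against 7.09 and 2.36 RPM in siControl. Both Nfya-KD libraries were lower than the siControl library of the same number, but siControl library 2 lay below Nfya-KD library 1. The authors chose these sites as decreased, so the values describe the listed sites and test nothing. The 2-cell site at the missing site chr7:26540161-26540310 also overlapped a kept oocyte site and its maternal PN3 partner. Its values were 0.314 and 0.488 RPM in Nfya-KD, against 3.19 and 0.972 RPM in siControl. The other kept sites named for width were chr3:32607221-32607570, with 0.628 and 0.244 RPM in Nfya-KD against 1.77 and 1.18 RPM in siControl, and chr10:128133381-128133670, with 0.628 and 0.651 against 3.19 and 0.833 RPM. At both of these, and at the missing sites named here, both siControl values lay above both Nfya-KD values. The share of listed sites that show this was not counted. At the widest of the 7 missing sites, of 190 bp, and at one of the 6 of 150 bp, the 2-cell site was below 1 RPM in every library. The values were 0 and 0.325 RPM in Nfya-KD against 0.709 and 0.417 RPM in siControl at chr5:111199861-111200050, and 0 and 0.244 against 0.709 and 0.278 RPM at chr3:142545041-142545190. The 2-cell site at chr5:111199861-111200050 also overlapped the pronucleus-only site chr5:111199481-111199770.

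For Oct4, a pluripotency transcription factor, the share was lowest at sites overlapping both lists and highest at sites overlapping neither. Apart from the sites in neither, the intervals of the sets over all classes overlap one another, so the order among those sets is unsure. The authors' list of decreased sites held 2643 of the 9635 sites gained at the 8-cell stage, a background of 27.4%. It held 10 of 127 gained sites that overlapped both the oocyte and maternal PN3 (7.87%, 3.84 to 14.0), 187 of 1215 that overlapped maternal PN3 alone (15.4%, 13.4 to 17.5), 7 of 51 that overlapped the oocyte alone (13.7%, 5.70 to 26.3) and 2439 of 8242 that overlapped neither (29.6%, 28.6 to 30.6). Among promoter-class sites the background was 22.7% (971 of 4273), and the shares were 8.41%, 15.2%, 15% and 25.7%. The promoters in neither list (24.2 to 27.3) lie above it. At the 10 sites in both lists the median was 0.747 and 0.651 RPM in Oct4-KD, against 2.07 and 1.26 RPM in siControl. The 8-cell gained sites are those absent from the 4-cell list, and no test was made on either decreased list.

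**Figure D5:**
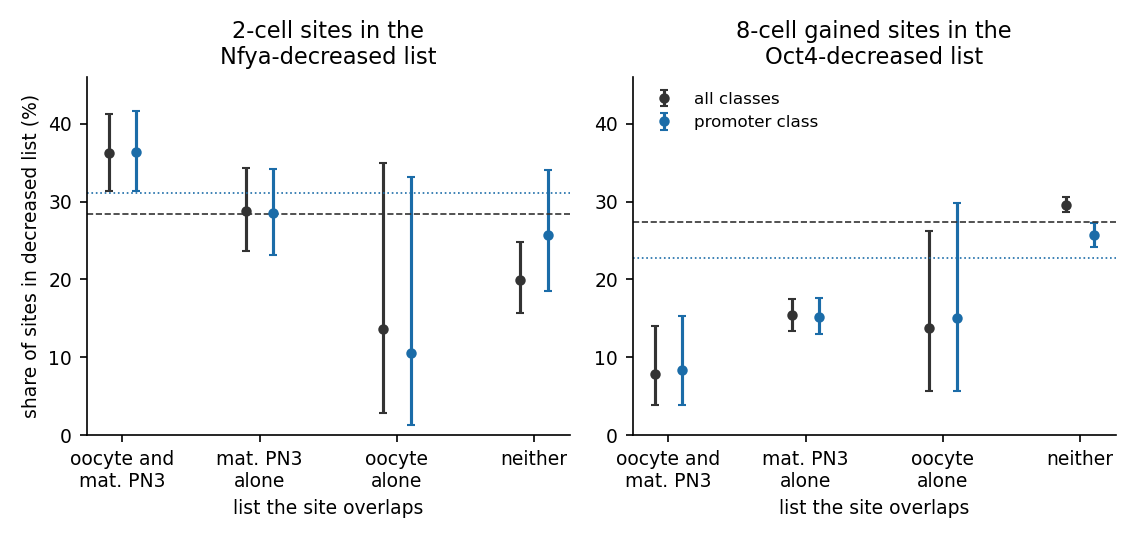
Share in percent of 2-cell sites in the authors' Nfya-decreased list (left) and of 8-cell gained sites in the Oct4-decreased list (right), by whether the site overlaps the oocyte and maternal PN3 lists. Points are all classes (dark) or promoter class (blue), bars are exact 95% intervals, dashed lines mark the backgrounds over all classes of 28.4% and 27.4%, and dotted blue lines those of promoters, 31.1% and 22.7%. Sites in both lists have a share of 36.2% for Nfya and 7.87% for Oct4.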

How the data were processed

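DNase-seq reads were aligned with Bowtie 0.12.9 to mm9, per the submitters' processing notes. The DHS caller, its threshold and the class definitions were not given in the sources used here. The authors deposited 1 list per group with positions, and classes for the 5 stage lists. Starts were read as counting from 0 and are printed with 1 added. The 14 mitochondrial sites of the oocyte list were left out. The authors deposited, for each knockdown, decreased sites with values per library, read here as RPM from the steps of the values, and a log2 fold change, which is not printed. The 5 RNA columns of per-sample values were not used. Overlaps were computed in Python 3.11.15 and checked against bedtools 2.31.1 (36 counts, 0 differing). Shares have exact Clopper-Pearson intervals at 95% confidence and differences Newcombe intervals. Shares were compared by two-sided Fisher's exact tests in scipy 1.17.1, and p-values were adjusted by Benjamini-Hochberg over 8 lists or over 2 promoter tests at a threshold of 0.05, and McNemar tests were exact. The units of these tests are sites, and no condition has a replicate in them. The overlap count and the Fisher's exact test were tried on simulated data. p-values under an alternative for promoter shares are unadjusted. Sites were named by width within each group (the 3 widest), by largest width change, by crowding and by list membership, and where sites tied in width the ones named are examples. The groups of sites and the lists were chosen with earlier results of these data known. No genome or gene position on mm9 was used here, so no site is given a gene or a sequence.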

Additional observations from a re-analysis of the deposited data

Results flagged for a closer look

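The oocyte list held 14 sites on the mitochondrial genome (1.62% of its 866 sites), against 0 of 3948 in the maternal PN3 list. These were not part of the comparison and are pointed out as a signal outside it. All 14 were 150 bp wide. Whole oocytes were taken for one group and isolated pronuclei for the other, so the difference in cytoplasm cannot be told apart from the stage. The other 3 pronuclear lists and the 5 stage lists had 0 mitochondrial sites, and the sperm list had 21 of 87. The sources used here do not say whether mitochondrial sites were removed from some lists.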

How the results depend on the processing

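The settings tried changed the overlap rule, the width minimum, the chromosomes, the stitching of neighbours and the source of the class, and those with 150 bp sites alone and with wider sites alone were chosen after seeing the data. The kept share was 70.1% with 50% reciprocal overlap, 85.9% with gaps up to 500 bp, 29.3% with sites of at least 200 bp in both lists, 72.4% for 150 bp sites and 91.8% for wider ones, and stayed within its interval for autosomes and stitched sites. The pronucleus-only count was 914, 1663 and 1572 under the last 3 width settings. With sites of at least 200 bp, the promoter difference was -5.62 points for kept minus missing and 0.38 points for pronucleus-only minus shared, 0 of 8 kept-against-missing lists passed, the maternal PN5 difference was 2.72 points for pronucleus-only minus shared, and maternal minus paternal was -2.07 points. By construction that setting drops narrow sites from the oocyte list and every pronuclear list. Of 242 such oocyte sites, 222 overlapped a maternal PN3 site of any width and 71 one of at least 200 bp. The promoter difference for wider sites was 6.33 points. Maternal minus paternal was 2.65 points on autosomes and 2.66 points for 150 bp sites (exact McNemar p = 0.305), the cause was not tested. Of 112 alternative values of single lists, 101 kept direction and side of the threshold, 10 kept direction and lost the threshold and 1 reversed. No paired analysis was possible because the DHS lists hold no values per library, and for the same reason no replicate could be left out.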

Other observations

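Sperm sites met the compared lists in 3 places, all of them pronucleus-only sites of 150 bp with no class: chr2:16604661-16604810 and chr6:132413701-132413850, which were also in paternal PN3, and chr9:70653941-70654090, which was in none of the 8 other lists. No kept site of 702 and no missing site of 150 overlapped a sperm site.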
